A study of Solea senegalensis with 8 samples.

Results

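The 2 strands of the liver microRNA miR-122, miR-122-5p and miR-122-3p, were followed through early development of the Senegalese sole (Solea senegalensis). They were taken by name from the 320 miRNAs of the deposited table, which lists 2 rows for miR-122, one per strand. Small RNAs of whole embryos and whole larvae had been sequenced on the SOLiD platform in 8 libraries, with 1 library for each of 4 stages and 2 incubation temperatures. The stages were 75% epiboly (75Ep), 20 somites (20S), newly hatched larvae (Hatch) and larvae at the climax of metamorphosis (Met). The captive parents had spawned naturally. Only the embryos differed in temperature, with development up to hatching at either 15°C or 21°C, and larvae of both incubation temperatures then grew at like water temperature. Eggs were spread at random over the tanks, with triplicate groups for each incubation temperature. As samples were pooled, differences between tanks cannot be told apart from those between incubation temperatures. The Met larvae were taken at the same stage of eye migration, a day apart in age. Triplicate samples were pooled for each library, and no stage and temperature has a replicate library.

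A miRNA precursor is cut into a short duplex of a 5p and a 3p strand. One strand is usually kept by an Argonaute protein as the guide that finds target mRNAs, and the other, the passenger, is mostly lost. miR-122 is the main miRNA of hepatocytes in mammals and is also abundant in fish liver. In mammals it acts on cholesterol and fatty acid metabolism, and there the 5p strand is the usual guide. In the sole, the study treated the 3p strand as the guide and the 5p strand as the passenger. The 2 strands are therefore best read side by side, and the strand ratio, reads of 5p divided by reads of 3p, has the advantage that the depth of a library cancels out of it.

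The deposited values are log2 percents of the trimmed reads of each library, from which whole reads were recovered. Trimmed reads per library numbered 2169069 to 4965849. Reads of all 320 miRNAs made up 6.84% of them in the 75Ep library at 15°C and 6.59% at 21°C. In the same order of temperatures this share was 23.1% and 22.3% for 20S, 24.9% and 30.5% for Hatch, and 46.0% and 17.9% for Met. The Met pair was thus the least alike of the 4 in miRNA share. Levels are given below as rpm, the reads of a strand per 1000000 trimmed reads, and intervals are exact 95% intervals that cover counting error only.

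Both strands were near the detection limit in embryos and had risen in every larval library. miR-122-5p had 8 reads (2.85 rpm) at 75Ep at 15°C and 2 reads (0.922 rpm) at 21°C. At 20S it had 11 reads (3.31 rpm) at 15°C and 29 reads (11.3 rpm) at 21°C. At Hatch it had 159 reads (36.9 rpm, interval 31.4 to 43.1) at 15°C and 212 reads (65.1 rpm, 56.6 to 74.5) at 21°C. The 5p strand was thus low in all 4 embryo libraries, and from 20S onwards the library incubated at 21°C was the higher of each pair. At Met the 5p strand reached 1057 reads (213 rpm, 200 to 226) at 15°C and 3248 reads (765 rpm, 739 to 791) at 21°C. By rank among the detected miRNAs it moved from place 133 (15°C) and 179 (21°C) in 75Ep embryos to 121 and 45 in Met larvae. In order of level, Met at 21°C stood first, then Met at 15°C, Hatch at 21°C, Hatch at 15°C and 20S at 21°C, with intervals that did not overlap. The 3 lowest libraries, 20S at 15°C and both at 75Ep, had overlapping intervals.

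miR-122-3p followed the same rise with the temperatures in another order. It had no read at 75Ep at 15°C, which allows up to 3 reads or 1.07 rpm, and 1 read (0.461 rpm) at 75Ep at 21°C. At 20S it had 5 reads (1.51 rpm) at 15°C and 4 reads (1.56 rpm) at 21°C. The embryo libraries thus held at most 5 reads of the 3p strand each, and their order cannot be read from such counts. At Hatch the 3p strand had 112 reads (26.0 rpm, 21.4 to 31.3) at 15°C and 40 reads (12.3 rpm, 8.78 to 16.7) at 21°C. At Met it had 1573 reads (317 rpm, 301 to 333) at 15°C and 448 reads (105 rpm, 95.9 to 116) at 21°C. In larvae the library incubated at 15°C was therefore the higher of each pair for 3p and the lower of each pair for 5p. All 4 larval libraries stood above all 4 embryo libraries for both strands.

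**Figure D1:**
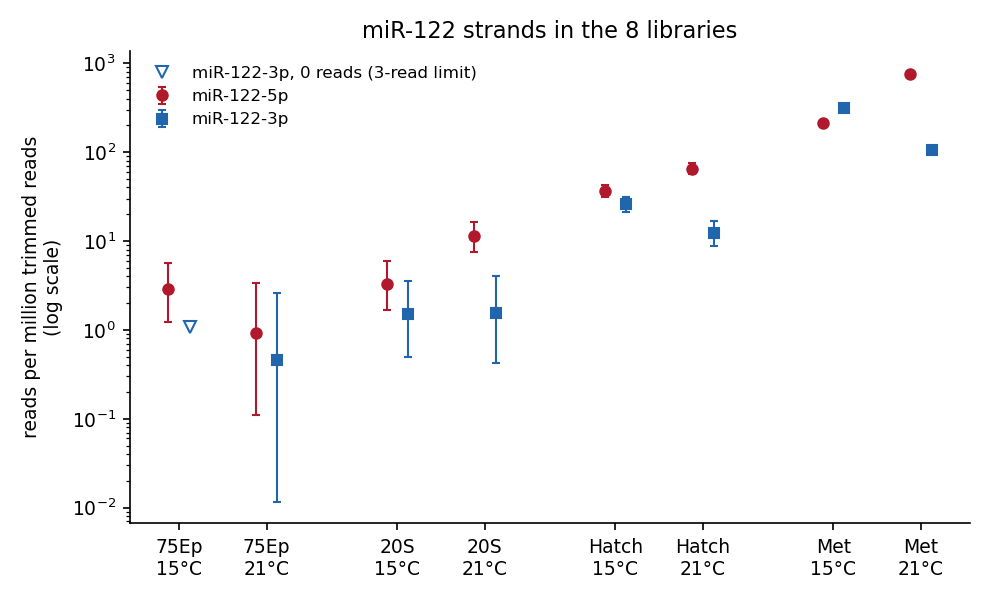
Level in rpm of miR-122-5p (circles) and miR-122-3p (squares) on a log axis, by stage and incubation temperature, with exact 95% counting intervals. The open triangle marks the limit of 3 reads where 3p had no read. At Met 3p was above 5p at 15°C (317 against 213 rpm) and far below it at 21°C (105 against 765 rpm).

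Stages were compared with limma on the log2 values of the 295 miRNAs that 2 or more libraries detected. The model had terms for stage and temperature, and p-values were adjusted over all of these miRNAs within each comparison by Benjamini-Hochberg. Since each stage has only its libraries at both temperatures, a temperature difference that varies between stages counts as error. miRNAs without a read entered at -16.60, 1 log2 unit below the smallest value that 1 read can give. From 75Ep to Met miR-122-5p rose by 7.96 on the log2 scale (SE 1.05, 95% interval 5.55 to 10.37, limma adjusted p = 3.75e-04). miR-122-3p rose by 9.73 (SE 1.16, 7.08 to 12.38, limma adjusted p = 2.20e-04), with 1 of its 2 values at 75Ep set at -16.60. In the same comparison 63.4% of all tested miRNAs rose, and the median change over all tested miRNAs was 4.07. Taking the share of miRNA reads in place of trimmed reads gave a median of 2.55, and the median was 0.61 after centring every library on its median miRNA. Under the centring the change of miR-122-5p was 3.49 and did not pass (limma adjusted p = 0.105), while that of miR-122-3p remained past the threshold.

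No single step of development passed the test for either strand, and the rise was spread over them. From 75Ep to 20S the change was 1.92 for 5p (SE 1.05, limma adjusted p = 0.186) and 2.83 for 3p (SE 1.16, limma adjusted p = 0.0836), in a step where 39.3% of miRNAs rose. From 20S to Hatch it was 3.00 for 5p (limma adjusted p = 0.177) and 3.54 for 3p (limma adjusted p = 0.155), where 1.36% rose. From Hatch to Met it was 3.04 for 5p and 3.36 for 3p (limma adjusted p = 0.0800 for each), where 13.6% rose. The median change of all miRNAs was 2.15, 0.80 and 0.51 in these 3 steps. The 75Ep libraries, with at most 8 reads of a strand, also enter the error of the later steps. Without both of them, an alternative added after the data were seen, the last 2 steps passed for both strands (limma adjusted p = 0.0243 and 0.0102 for 5p, and 0.0243 and 0.0140 for 3p), with the same sizes of change.

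The strand ratio changed sides only once. At 75Ep at 15°C there were 8 reads of 5p to none of 3p, with an exact interval from 1.71 upwards. With the 3p strand given its limit of 3 reads, that ratio would be 2.67. At 75Ep at 21°C there were 2 reads to 1 (0.104 to 118). At 20S the ratio was 2.20 (0.705 to 8.08) at 15°C and 7.25 (2.55 to 28.4) at 21°C. At Hatch it was 1.42 (1.11 to 1.82) at 15°C and 5.30 (3.77 to 7.63) at 21°C. Up to hatching the 5p strand thus had more reads than the 3p strand at both temperatures, and from 20S on by a wider margin at 21°C. The intervals of 75Ep at 21°C and of 20S at 15°C included 1, so those libraries do not settle which strand was higher. At Met the ratio was 0.672 (0.621 to 0.727) at 15°C and 7.25 (6.57 to 8.02) at 21°C. The 5p strand made up 40.2% (38.3 to 42.1) of the reads of both strands in the first of these libraries and 87.9% (86.8 to 88.9) in the second.

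The 15°C libraries therefore moved from a 5p excess to a 3p excess, while the 21°C libraries with more than 3 reads of both strands together stayed between 5.30 and 7.25. Over the 8 libraries the log2 ratio averaged 1.88 ± 1.69 (SD, n = 8), and 5p was higher in 7 of 8 (exact two-sided sign-flip permutation test, p = 0.0234, smallest p of 0.0078). In this mean and SD the 75Ep library at 15°C entered at 4.83, which came from the value of -16.60 set for its 3p strand. The mean without that library was 1.46. Without both 75Ep libraries the log2 ratio averaged 1.53, with 5p higher in 5 of 6, and did not pass (exact permutation p = 0.0938, smallest p of 0.0313). Libraries of the same stage are not independent of each other in that test.

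**Figure D2:**
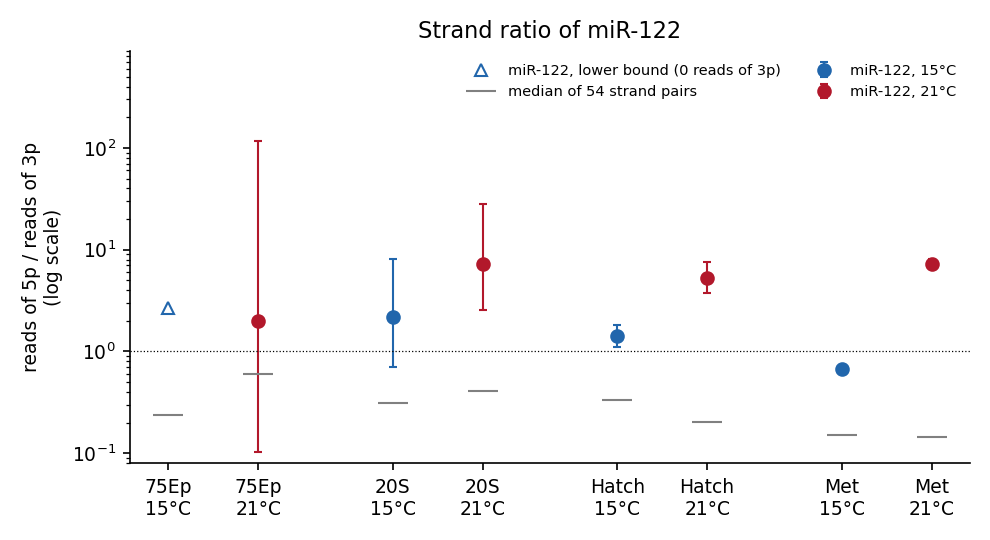
Reads of miR-122-5p divided by reads of miR-122-3p on a log axis, with exact 95% counting intervals, at 15°C (blue) and 21°C (red). The open triangle, drawn as a lower bound where 3p had no read, is the ratio of 2.67 at 3 reads of 3p. The dotted line marks equal strands, and the grey bars give the median ratio of all 54 precursors with both strands. Only Met at 15°C lies below the dotted line, at 0.672.

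Between temperatures, the ratio at 21°C exceeded that at 15°C by a factor of 3.30 (0.574 to 19.5) at 20S, 3.73 (2.42 to 5.81) at Hatch and 10.8 (9.50 to 12.3) at Met. On the log2 scale these shifts were 1.72, 1.90 and 3.43. At 75Ep the shift had the other sign, -3.83 on the log2 scale, and rested on 11 reads in all with 1 strand set at the undetected value. The intervals at Hatch and Met lay wholly above 1, but with 1 library per temperature and stage they hold for these libraries and are no test of temperature. In the limma fit of strand ratios over the 4 stages the difference between temperatures was 0.81 (95% interval -2.21 to 3.82, limma adjusted p = 0.979). None of the 53 strand ratios tested was called for temperature (0%), 2 had an unadjusted p under 0.05, and miR-122 was not called under any alternative. Without both 75Ep libraries the difference was 2.35 (SE 0.61), again not past the threshold (limma adjusted p = 0.374).

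Neither strand alone passed the test for temperature over the 4 stages. The difference, 21°C minus 15°C, was 0.70 for miR-122-5p (95% interval -1.0 to 2.40) and -0.11 for miR-122-3p (-1.98 to 1.77), both with a limma adjusted p of 0.998. No miRNA at all was called (0%), with 8 at an unadjusted p under 0.05, and voom on the recovered reads also called none, with 8. Both intervals included 0.

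Within larvae the 2 strands went opposite ways between the libraries. At Hatch miR-122-5p was 1.77-fold (1.43 to 2.18) higher at 21°C, and miR-122-3p was 2.11-fold (1.46 to 3.11) higher at 15°C. At Met miR-122-5p was 3.59-fold (3.35 to 3.85) higher at 21°C, and miR-122-3p was 3.00-fold (2.70 to 3.34) higher at 15°C. Most miRNAs of the Met pair were lower at 21°C, and so was the miRNA share of its reads. Of the 233 miRNAs with at least 10 reads in either Met library, 68.7% were at least 2-fold lower at 21°C and 3.00% at least 2-fold higher, with a median difference of -1.37 on the log2 scale. Rescaled to the summed miRNA reads, 25 were at least 2-fold lower and 25 at least 2-fold higher, and the median was -0.01. Per trimmed read, the 3p strand lay close to the median and ranked 141st of 233 from the highest, whereas the 5p strand ranked 5th.

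With that rescaling, the 21°C to 15°C fold at Met became 9.25 for the 5p strand and 0.858 for the 3p strand, so that the fold of 3p moved to near 1 and that of 5p grew. The ratio between the strands is the same under either scaling. The 7 miRNAs at least 2-fold higher at 21°C per trimmed read, picked out by their values, included the strands miR-126a-5p (4 reads at 15°C and 2136 at 21°C), miR-205-3p (6 and 23) and miR-144-3p (5 and 10). The others were miR-71 (0 and 92), let-7i (84 and 952), miR-122-5p and miR-1788-5p (63 and 139). At Hatch, where 10.3% of 214 miRNAs were at least 2-fold higher and 11.2% at least 2-fold lower at 21°C, miR-122-5p ranked 29th and miR-122-3p 194th. Rescaled to miRNA reads, 15 of the 214 were at least 2-fold higher and 45 at least 2-fold lower at Hatch.

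Other liver and gut miRNAs also rose through development. The list held miR-192, miR-194a, miR-194b and miR-215, which in mammals are enriched in liver and intestine, besides both strands of miR-122. From 75Ep to Met 3 of these 4 rose, as did both miR-122 strands, against 63.4% of all miRNAs. The changes were 9.72 for miR-192 (limma adjusted p = 2.04e-04), 10.30 for miR-194a (limma adjusted p = 1.55e-04) and 5.36 for miR-215 (limma adjusted p = 0.00127). For miR-194b, read at Met alone, the change of 1.61 did not pass (limma adjusted p = 0.0816). The median change of the 4 was 7.54 beside 4.07 over all miRNAs. From Hatch to Met only miR-194a passed, with 3.82 (limma adjusted p = 0.0278), in a step where 13.6% of all tested miRNAs rose. miR-192 and miR-215 are near-identical in mammals, and miR-194a and miR-194b are named as members of the same family. How reads matching more than 1 of these miRNAs were assigned is not given in the sources used here.

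Set against miR-192, the most abundant of the list, the 3p strand varied within a narrower range than the 5p strand over the libraries in which both were read. The 3p strand was 0.781% of miR-192 in the 75Ep library at 21°C. Given for 15°C and then 21°C, it was 1.11% and 0.909% in 20S embryos, 1.08% and 0.589% in hatched larvae, and 0.786% and 0.891% in Met larvae. It thus lay between 0.589% and 1.11% of miR-192 in the 7 libraries where it was read, while its own level went from 0.461 to 317 rpm. The 75Ep share rested on 1 read of 3p and the 20S shares on 5 and 4 reads, so these are imprecise. In the larval libraries alone the 3p share lay between 0.589% and 1.08%. The 5p strand was 25.0% and 1.56% of miR-192 in 75Ep embryos, 2.44% and 6.59% in 20S embryos, 1.54% and 3.12% in hatched larvae, and 0.528% and 6.46% in Met larvae. The share of 25.0% rested on 8 reads of 5p, and without that library the range was 0.528% to 6.59%. At Hatch both strands differed by about 2-fold between the libraries in this share, in opposite directions.

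**Figure D3:**
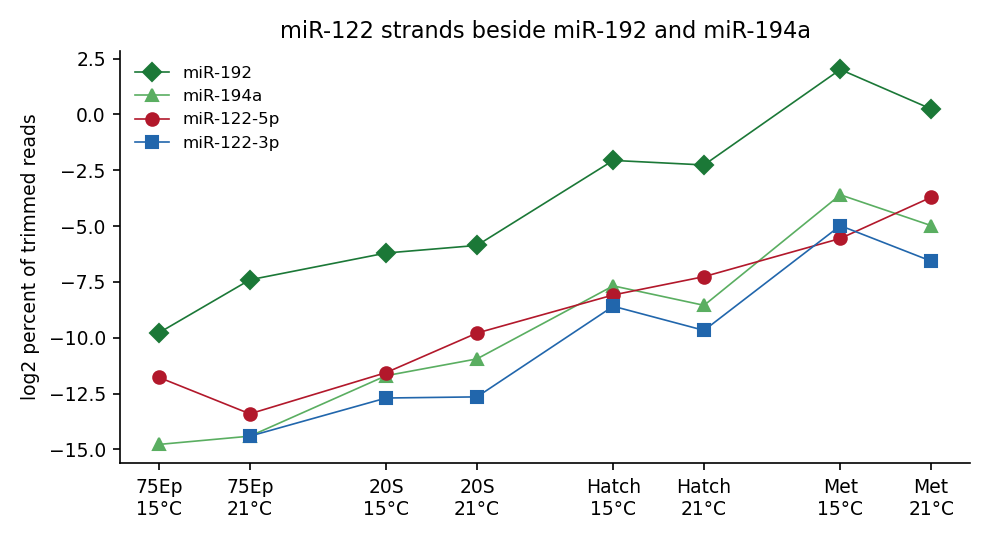
Log2 percent of trimmed reads of miR-192, miR-194a and both strands of miR-122 in the 8 libraries (points joined for each miRNA, libraries with no read left out). miR-122-3p falls from 15°C to 21°C at Hatch and Met together with miR-192 and miR-194a, and miR-122-5p goes up in both pairs. At Met 68.7% of 233 miRNAs were at least 2-fold lower at 21°C per trimmed read.

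At Met these miRNAs were lower in the 21°C library together with the 3p strand. miR-192 had 200181 reads at 15°C and 50301 at 21°C, which is 3.40-fold (3.37 to 3.44) higher at 15°C. miR-194a had 4097 and 1348 reads, 2.60-fold (2.44 to 2.77) higher at 15°C. miR-215 had 45 and 8 reads, 4.81-fold (2.24 to 11.8) higher at 15°C. Of the 5 liver and gut miRNAs with at least 10 reads in either Met library, 4 were thus at least 2-fold lower at 21°C, against 68.7% of all miRNAs, and only miR-122-5p was higher. Rescaled to miRNA reads, the 21°C to 15°C folds of the 4 lay between 0.535 and 0.991, miR-122-3p among them at 0.858. Thus 0 of 5 were then 2-fold lower, beside 25 of 233 miRNAs.

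The lipid metabolism list held the strands and letters of miR-33, miR-103, miR-107 and miR-27. In mammals miR-33 acts on cholesterol export, miR-103 and miR-107 on insulin sensitivity, and miR-27 on fat cell differentiation and lipid handling. miR-103 and miR-107 are near-identical in mammals, as are the letters of miR-27. The study's list of sole sequences gives miR-103a-3p and miR-107-3p the same sequence, and likewise miR-27c and miR-27d. The assignment of reads they share is likewise not given, so their separate values are uncertain. Counts over the 12 members include these repeated sequences. From 75Ep to Met 11 of 12 rose, beside 63.4% of all miRNAs, with a median change of 4.70 beside 4.07, and miR-27d did not pass with 3.35 (limma adjusted p = 0.0652). The largest changes were 6.23 for miR-27c and 5.88 for miR-27b-3p, and the smallest among those that rose was 2.93 for miR-27e. Both miR-122 strands changed more than each of the 12. From Hatch to Met none passed, where 13.6% of all miRNAs rose, with changes between -1.52 (miR-33-3p) and 3.21 (miR-27a).

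At Met all 12 were lower in the 21°C library, 10 of them at least 2-fold, beside 68.7% of all miRNAs and unlike miR-122-5p. Rescaled to miRNA reads, 7 of the 12 were lower and 5 higher at 21°C, with folds between 0.118 and 1.75. The 5 were miR-107-3p, miR-107b, miR-107-5p, miR-27b-5p and miR-27c. Of the 12, 2 were then at least 2-fold lower, beside 25 of 233 miRNAs. Per trimmed read, miR-103a-3p had 104865 reads at 15°C and 33869 at 21°C, a 2.65-fold (2.62 to 2.68) higher level at 15°C. miR-33-3p had 266 and 63 reads, 3.61-fold (2.74 to 4.83) higher, and miR-27a 2254 and 324 reads, 5.95-fold (5.29 to 6.71) higher. miR-107-5p was the least different, with 43 and 25 reads (1.47-fold, 0.879 to 2.51). At Hatch only miR-27b-3p among the 11 with at least 10 reads differed by 2-fold or more, being 2.11-fold (1.78 to 2.49) higher at 15°C. Of all 214 miRNAs with as many reads at Hatch, 10.3% were at least 2-fold higher and 11.2% at least 2-fold lower at 21°C.

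**Figure D4:**
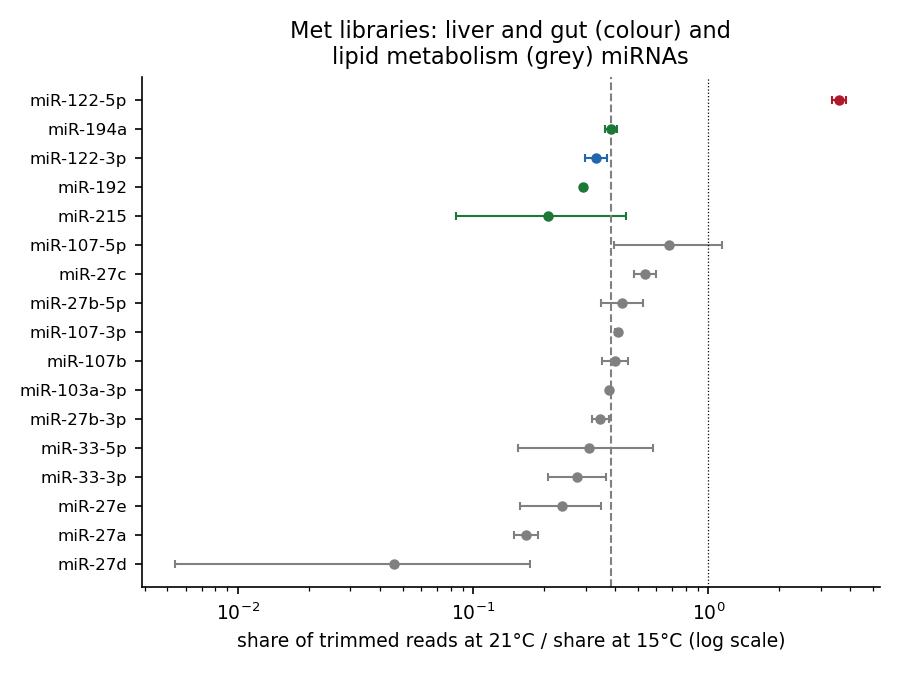
Share of trimmed reads in the Met library at 21°C divided by that at 15°C, on a log axis with exact 95% counting intervals, for liver and gut miRNAs (colour) and lipid metabolism miRNAs (grey). The dotted line marks equal shares and the dashed line the median of 233 miRNAs (-1.37 on the log2 scale). Of the 17 miRNAs shown only miR-122-5p lies to the right of the dotted line, at 3.59, and rescaled to miRNA reads 5 lipid metabolism miRNAs would lie there as well.

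Whole embryos and larvae hold many tissues, so the number of liver cells and the amount of miR-122 per cell cannot be told apart. Both strands together summed to 530 rpm at Met at 15°C and 870 rpm at Met at 21°C. Markers of other tissues were read in the same libraries. The summed level of the liver and gut list was 14.6 rpm at 75Ep at 15°C (3 of 6 members read). It was 41675 rpm at Met at 15°C and 13032 rpm at Met at 21°C (6 of 6). Most of each sum was miR-192, with 11.4, 40312 and 11842 rpm in these libraries. At Met the skeletal muscle list (miR-1, miR-133 and miR-206, 12 members) summed to 19070 rpm at 15°C with 10 members read and 3648 rpm at 21°C with 11. The neuron list (miR-124 and miR-9, 6 of 6 read) summed to 3875 and 1020 rpm, the red blood cell list (miR-144 and miR-451, 3 of 3) to 309 and 106 rpm, and the cartilage list (miR-140, 2 of 2) to 6365 and 3623 rpm. All 5 lists were thus lower per trimmed read in the Met library at 21°C, as 4 of the 5 liver and gut miRNAs were and miR-122-5p was not. Per 1000000 miRNA reads the cartilage list turned direction, with 13834 at 15°C and 20285 at 21°C. The other lists stayed lower at 21°C by smaller factors, with 90572 and 72958 for liver and gut, 41444 and 20424 for muscle, 8421 and 5711 for neurons, and 672 and 593 for red blood cells. The part of tissue make-up in the strand levels was not tested.

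The miRNAs with the most similar profiles overlapped between the strands, with miR-214-3p, miR-194a and miR-455a among the closest to both. Pearson correlations were taken over the 8 libraries on the log2 scale, among the 178 miRNAs read in all 8, as a description, since libraries of a stage share that stage and many miRNAs rise through it. For miR-122-3p the 5 closest were miR-192 (r = 0.997), miR-455b (0.991), miR-194a (0.990), miR-455a (0.986) and miR-214-3p (0.982). For miR-122-5p they were miR-214-3p (r = 0.956), miR-194a (0.945), miR-138a (0.944), miR-455a (0.942) and miR-146a (0.937), with miR-192 in the 13th place at 0.912. The 2 strands correlated with each other at 0.908, less closely than each did with its 5 neighbours. The undetected value at 75Ep at 15°C entered these correlations at -16.60.

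Among the 54 precursors with both strands in the table, a 5p excess was the less common state. The mean log2 ratio was above 0 for 17 and below 0 for 37. miR-122 ranked 11th from the top with its mean of 1.88, just below miR-144 (2.20), a miRNA of red blood cells, and just above miR-133a (1.50), a miRNA of muscle. Its SD over libraries, 1.69, was the 24th largest. The largest SDs were 4.40 for miR-101a and 4.05 for miR-126a, so the variation of miR-122 over the 8 libraries was in the middle of the range. These means, SDs and ranks include the value of -16.60 set for undetected strands. Both strands were read in 7 libraries for miR-122, 5 for miR-101a and 3 for miR-144. The median log2 ratio of all pairs lay between -0.72 and -2.78 in the 8 libraries, and miR-122 stood above it in 8 of 8.

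At Met the median log2 ratio of all pairs was -2.71 at 15°C and -2.78 at 21°C, while single pairs shifted both ways, from -3.13 to 11.09. Of the 45 precursors with both strands read in both Met libraries, 13.3% shifted toward 5p and 8.89% toward 3p by at least 2 log2 units at 21°C, and the median shift was 0.17. miR-122 had the third largest shift in either direction, 3.43. Ahead of it stood miR-126a, a miRNA of blood vessels, with 11.09 (4 reads of 5p and 21587 of 3p at 15°C, 2136 and 5298 at 21°C), and miR-429 with 3.68, which rested on 1 and 3 reads of its 5p strand. After it came miR-205 with -3.13 and miR-1a with -2.93. Of these 45, the strand with more reads differed between the 2 libraries for miR-122 and for miR-199a, whose log2 ratio went from 0.34 to -0.19. These precursors were picked out by their values.

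No change of the strand ratio of miR-122 between stages passed the limma test in the fit of all 8 libraries. The change in log2 ratio was -0.91 from 75Ep to 20S, -0.54 from 20S to Hatch, -0.31 from Hatch to Met and -1.77 from 75Ep to Met (95% interval -6.03 to 2.49, limma adjusted p = 0.479). In that last comparison 28.3% of the 53 ratios were called, and in the single steps 0%, with 12, 2 and 8 at an unadjusted p under 0.05. The 75Ep to Met value rested on the 75Ep libraries, with 8 and 2 reads of 5p and 0 and 1 of 3p. At 75Ep at 15°C the log2 ratio of 4.83 came from the value of -16.60 set for 3p. The 75Ep to Met change was 1.32 without 75Ep at 15°C. It was -4.86 without 75Ep at 21°C, where 3p at 75Ep had that set value alone.

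**Figure D5:**
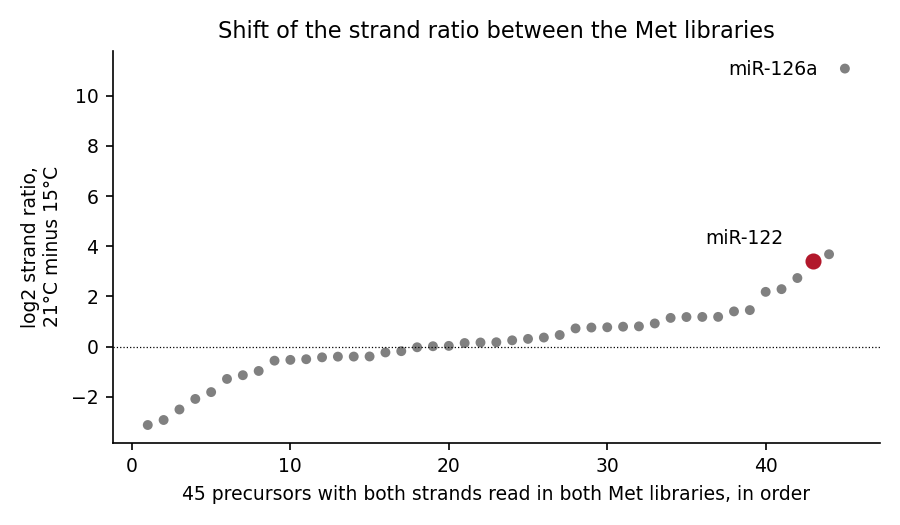
Log2 strand ratio (5p over 3p) in the Met library at 21°C minus that at 15°C, for the 45 precursors with both strands read in both, sorted by value. The median shift is 0.17, and miR-122 (3.43) has only miR-429 (3.68) and miR-126a (11.09) above it.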

How the data were processed

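The authors sequenced small RNAs on the SOLiD platform and trimmed the reads. BLAST was used to discard other classes of small RNA before mapping to miRBase. According to the study's discussion, all libraries were made at the same time and shared a slide. As deposited, each log2 value is that of the percent of trimmed reads that a miRNA takes in its library, and the value -46.51 marks a miRNA with no read. Trimmed reads were recovered from the table itself, and with them 99.5% of the 2033 values above -46.51 gave whole reads within 0.01 read. The 10 other values, in 6 miRNAs, do not belong to miR-122. How well each sequence is captured in library making was not measured here, so the strand ratio is one of reads.

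Undetected values were set to -16.60. Fits used limma 3.58.1 in R 4.3.3 with a variance trend, 3 residual degrees of freedom for each miRNA and a threshold of 0.05, and were tested on simulated data. Strand ratios were fitted for 53 of 54 precursors, with each strand detected in at least 2 libraries. Intervals and exact tests used scipy 1.17.1, tables pandas 2.3.3 and numpy 2.4.6, and plots matplotlib 3.10.9, all in Python 3.11.15. Named were both strands, the 2 lists, the 5 closest profiles of each strand, the precursors next to miR-122 in mean ratio and those with the 2 largest SDs. Other names were picked after their values were seen. The members, lists and tests were chosen with earlier results of these data known. Alternatives were 2 other scalings, 2 pseudocounts, other filters, no variance trend, no temperature term, voom on recovered reads, ratios minus the median of all pairs, and leaving out each library. A fit without both 75Ep libraries was added after the data were seen. No sequence is printed, and the study's list of sole sequences was used only for the names said above to share a sequence.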

Additional observations from a re-analysis of the deposited data

Results flagged for a closer look

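miR-192, the miRNA whose profile was closest to miR-122-3p, was picked out because its difference between incubation temperatures changed direction with stage. The fold, 21°C over 15°C, was 5.17 at 75Ep and 1.27 at 20S, and it was 0.869 at Hatch and 0.294 at Met. Rescaled to miRNA reads, these folds were 5.36, 1.31, 0.708 and 0.757. Most miRNAs went the same way as miR-192 at 75Ep and Met. At 75Ep, of 149 miRNAs with at least 10 reads in either library, 85 were at least 2-fold higher at 21°C and 10 lower. Their median difference was 1.17 on the log2 scale. At Met 160 of 233 were at least 2-fold lower and 7 higher, with a median of -1.37. The difference between stages was not tested, since each stage has 1 library per temperature.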

How the results depend on the processing

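Leaving single libraries aside, 14 of the 117 alternative values for miR-122 changed direction or side of the threshold or moved, and 4 of these reversed, none of them past the threshold. After centring on the median miRNA, the change of miR-122-5p from 75Ep to 20S was -0.60 and that from 75Ep to Met 3.49 (limma adjusted p = 0.105), while miR-122-3p had a temperature difference of 1.22, which was 0.88 when rescaled to miRNA reads. The strand ratio minus the median of all pairs changed by 0.48 from Hatch to Met. From Hatch to Met, miR-122-3p passed with a pseudocount of 1 read (3.33, limma adjusted p = 0.0494) and with voom (3.33, limma adjusted p = 0.0499). Without both 75Ep libraries, 20S to Hatch passed with 3.00 for 5p and 3.54 for 3p, Hatch to Met with 3.04 and 3.36, and the mean log2 ratio of 1.53 no longer passed. Rescaled folds within Met were 9.25 and 0.858. The cause was not tested.

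Leaving out each library in turn, the changes of miR-122-5p were 0.36 to 3.47 (75Ep to 20S), 2.29 to 3.71 (20S to Hatch) and 2.28 to 3.80 (Hatch to Met). Those of miR-122-3p were 1.30 to 4.36, 2.89 to 4.19 and 2.37 to 4.34, and its temperature difference was -0.87 to 0.39. With both 75Ep libraries kept, none of these steps passed for either strand. The 75Ep to 20S change was largest for 5p without 75Ep at 15°C (3.47) and for 3p without 75Ep at 21°C (4.36). Each of these fits left 1 library at 75Ep, and for 3p that library had no read and entered at -16.60. Both later steps passed when either 75Ep library was left out. The strand ratio changed by -4.00 to 2.17, -1.27 to 0.19, -2.06 to 1.44 and, from 75Ep to Met, -4.86 to 1.32, and its temperature difference was -0.068 to 2.35. Both ends of its 75Ep to Met range came from fits with 1 library left at 75Ep, and -4.86 rested on the value set for 3p. From 75Ep to Met both strands passed in 8 of 8 such fits, with 6.40 to 9.51 for 5p and 8.20 to 11.26 for 3p, and the mean log2 ratio was 1.46 to 2.23.

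Counts of called miRNAs moved more. From 75Ep to Met 187 rose and 16 fell, against 70 and 49 when centred, and 126 of 160 were called above the median level. From 75Ep to 20S 116 rose and 3 fell, against 44 and 9 when rescaled and 43 and 19 when centred. Between Hatch and Met there were 40 higher and 12 lower calls, against 39 and 36 when centred, 28 calls above the median level and 87 without both 75Ep libraries. From 20S to Hatch 4 were called, against 2 to 8 in other fits of all 8 libraries and 33 without both 75Ep libraries. For strand ratios from 75Ep to Met the 15 calls became 8 over the 29 pairs with both strands in every library and 8 minus the median of all pairs, where Hatch to Met gave 4. Leaving out 1 library gave 5 to 145 miRNAs (75Ep to 20S), 0 to 33 (20S to Hatch), 6 to 86 (Hatch to Met), 153 to 209 (75Ep to Met) and 3 to 10 ratios (75Ep to Met).

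Depth limits the embryo values, with at most 29 reads of 5p and 5 of 3p in a library. Pairs with both strands in all 8 libraries give no value for miR-122, which has no 3p read at 75Ep at 15°C, nor does a filter above the median level for 3p. Temperatures were paired within stage in the limma fits, and the labels give no replicate numbers for any other block.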
